A study of Homo sapiens with 18 samples.

Results

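7 genes were followed through MSC-hTERT cells that carried serum response factor (SRF) or 1 of 4 SRF fusions. CMKLR1, NRXN3, RPE65, DELEC1, KIF21B, ST6GAL2 and GALNT6 were picked as not known as muscle genes, which does not exclude a part in muscle. They are 7 of the 61487 gene identifiers counted, and all 7 passed the filter on low counts. The genes were picked from these same libraries because they moved alike in several fusions against a control, by eye and with no fixed threshold. Their levels in the fusions and in both control groups are therefore a description, with no p-value. Calls between groups, made for them in the fit of all genes, are given as a description, also by setting. Nothing about the genes is read from those calls. The values bear out the name "raised by several fusions" for only some of them. CMKLR1, NRXN3, RPE65 and DELEC1 were above both controls in SRF-RELA, SRF-FOXO1 and SRF-ICA1L. KIF21B and ST6GAL2 stood near or modestly above the vector level in the fusions and were low in cells with SRF alone. GALNT6 was modestly above the vector and near the level with SRF alone.

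MSC-hTERT is an immortalized human mesenchymal stem cell line, so every group shares the telomerase gene and a culture medium with serum, FGF-2, ascorbic acid and heparin. The 6 groups of 3 libraries, numbered 1 to 3, are labelled pMSCV (a retroviral vector name, taken here as the control), SRF, SRF-RELA, SRF-PDGFRB, SRF-ICA1L and SRF-FOXO1. The labels give no breakpoint, time after transduction or clone, and do not say whether the libraries of a group came from separate cultures, so p-values measure only the spread between these libraries. Poly(A) RNA libraries were sequenced to between 19362319 and 29806771 counts. SRF counts, native and introduced together, were on average 60.96 CPM (counts scaled to the library's total, the usual CPM unit) in pMSCV, 945 CPM in SRF and 182 to 326 CPM in the 4 fusions. ICA1L and RELA were raised in their own fusion groups. PDGFRB was at 929.7, 526 and 673 CPM in libraries 1, 2 and 3 of SRF-PDGFRB against 502, 392 and 381 CPM in pMSCV and up to 621 CPM in SRF, so that library 2 was within the range of the SRF group. FOXO1 was at 9.79 ± 3.99 CPM (SD, n = 3) in the libraries labelled SRF-FOXO1 and 12.6 ± 4.27 CPM in pMSCV. FOXO1 thus does not check that label, and "SRF-FOXO1" below means the libraries so labelled.

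SRF binds DNA at the CArG box, a short palindromic element, and with the myocardin family of coactivators it drives genes of the contractile apparatus and the actin cytoskeleton. Apart from DELEC1, the 7 genes are best known from other systems. CMKLR1 is a cell surface receptor for the secreted protein chemerin, best known on macrophages, dendritic cells and fat cells. NRXN3 is a neurexin, an adhesion protein of nerve terminals. RPE65 is the retinal pigment epithelium enzyme that isomerizes vitamin A esters for the visual cycle. KIF21B is a kinesin that walks along microtubules and restrains their growth, known from neurons and lymphocytes. ST6GAL2 adds sialic acid to galactose-ended glycans in the Golgi, and GALNT6 starts mucin-type O-glycans by linking the first sugar to serine or threonine. DELEC1, deleted in esophageal cancer, has no well established function, and RefSeq lists it as a long non-coding RNA.

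Because SRF acts at CArG boxes, the RefSeq promoter windows (GRCh38.p14, 250 bases before to 50 after a start) of the genes were searched for this element. The pattern is its own reverse complement, so a search of 1 strand covers both. Windows were found for 5 of the 7 genes, and 2 of those 5 held an exact match, against 438 of 27305 genes (1.60%) and 454 of 35116 windows (1.29%) in the whole table. The matching stretches are shown because they carry the only exact matches, with the box in capitals, 5′ to 3′ on the gene's own strand.
RPE65: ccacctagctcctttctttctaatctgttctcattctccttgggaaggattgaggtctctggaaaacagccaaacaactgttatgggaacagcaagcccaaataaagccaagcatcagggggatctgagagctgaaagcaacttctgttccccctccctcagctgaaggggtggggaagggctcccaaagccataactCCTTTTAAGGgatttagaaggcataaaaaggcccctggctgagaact
ST6GAL2: gagaaacacgCCTTTTTAGGcagccgtgct
The RPE65 stretch is the 245 bases before the gene, chr1:68449960-68450204 on the minus strand, and the ST6GAL2 stretch is 30 bases of 1 of its 4 windows, chr2:106886902-106886931 on the minus strand. Both boxes lie from 52 to 43 bases before their RefSeq start. The RPE65 window also held 2 elements with 1 mismatch to the box, as did 1 other ST6GAL2 window with 1. No match, exact or with 1 mismatch, was in the window of CMKLR1 or DELEC1 or in the 3 windows of NRXN3. With 1 mismatch allowed, the element was in 18.9% of all windows and 22.3% of all genes, and still in 2 of the 5. A match describes the letters only. Binding was not measured.

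CMKLR1 (ENSG00000174600, 12:108288044-108339341, minus strand, GRCh38, GENCODE 29) had the highest level per kilobase of exon of the 7 genes in SRF-RELA, SRF-FOXO1 and SRF-ICA1L and ranked 4 of 7 in pMSCV. Libraries 1, 2 and 3 of pMSCV had 0.177, 0.688 and 0.658 CPM, from 5, 16 and 19 counts. Those of SRF had 0.408, 0.880 and 0.833 CPM. SRF-FOXO1 had 41.1, 122 and 80.7 CPM. In SRF-ICA1L the receptor was at 38.8, 104 and 70.6 CPM, and in SRF-RELA at 34.8, 116 and 71.1 CPM. SRF-PDGFRB stood between, at 1.67, 1.82 and 2.89 CPM, above every pMSCV and SRF library and far below every library of the other 3 fusions. The pMSCV and SRF ranges overlapped. Summed over libraries, the ratio to pMSCV was 159 in SRF-FOXO1 (95% counting interval 116 to 222), 146 in SRF-ICA1L (107 to 205) and 155 in SRF-RELA (114 to 218), and 4.09 in SRF-PDGFRB (2.87 to 5.94). These intervals cover counting error only.

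NRXN3 (ENSG00000021645, 14:78170373-79868290, plus strand) was at or near 0 in the controls. Its counts were 0, 6 and 4 in pMSCV and 2, 2 and 10 in SRF. SRF-PDGFRB gave 5, 9 and 7 counts, or 0.174, 0.309 and 0.362 CPM, which overlapped both controls. SRF-FOXO1 had 7.78, 103 and 20.5 CPM. SRF-ICA1L had 16.9, 49.4 and 30.7 CPM, and SRF-RELA 22.8, 107 and 32.01 CPM. Every library of these 3 fusions was above every control and SRF-PDGFRB library. Against SRF, the ratio of summed levels was 252 in SRF-FOXO1 (counting interval 149.9 to 461), 194 in SRF-ICA1L (115 to 355) and 338 in SRF-RELA (201 to 618). Single libraries moved these ratios. The SRF-FOXO1 ratio was 76.8 without SRF-FOXO1 replicate 2, 382 without SRF-FOXO1 replicate 1 and 572 without SRF replicate 3, and the SRF-RELA ratio was 161 without SRF-RELA replicate 2 and 767 without SRF replicate 3. In SRF-ICA1L it was 440.3 without SRF replicate 3. The fitted log2 fold change in SRF-FOXO1 against SRF was 8.08 (SE 1.24), and 6.34 without SRF-FOXO1 replicate 2 and 9.20 without SRF replicate 3.

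RPE65 (ENSG00000116745, 1:68428822-68449959, minus strand) had no count in any pMSCV library. A floor of 3 counts of a library's total, the limit that a count of 0 allows, come to a mean of 0.113 CPM in that group. SRF gave 4, 1 and 4 counts, and SRF-PDGFRB 0, 1 and 2. In SRF-FOXO1 the gene reached 1.11, 17.5 and 6.20 CPM. SRF-ICA1L had 2.26, 9.31 and 4.63 CPM, and SRF-RELA 2.67, 10.8 and 5.26 CPM. All 9 of these libraries were above every other library. The mean RPE65 level of each of these fusions was divided by this mean limit of 0.113 CPM. The resulting lower bounds on the ratio to pMSCV were 73.0 (SRF-FOXO1), 55.3 (SRF-RELA) and 47.8 (SRF-ICA1L). They describe group means and not single libraries, as SRF-FOXO1 library 1 had only 1.11 CPM. Against the 9 counts of SRF, the ratio was 72.5 with SRF-FOXO1 (counting interval 37.9 to 159), 60.1 with SRF-RELA (31.4 to 132) and 50.9 with SRF-ICA1L (26.5 to 112). Without replicate 2 of the fusion, the bounds against pMSCV were 32.3 (SRF-FOXO1), 35.1 (SRF-RELA) and 30.5 (SRF-ICA1L) and the ratios to SRF 29.6, 36.4 and 31.1, and without SRF-FOXO1 replicate 1 the ratio to SRF was 112. Its fitted log2 fold change in SRF-FOXO1 against SRF, 6.27 (SE 1.18), was 4.99 without SRF-FOXO1 replicate 2.

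DELEC1 (ENSG00000173077, 9:114850968-115402644, plus strand, named DEC1 in GENCODE 29) followed the same groups at a low level. It had 0.389, 0.387 and 0.623 CPM in pMSCV and 0.705, 0.612 and 0.451 CPM in SRF. SRF-PDGFRB had 0.662, 1.24 and 1.14 CPM, which overlapped SRF and lay above pMSCV. The other fusions had 1.54, 2.90 and 1.94 CPM (SRF-FOXO1), 3.92, 3.47 and 2.50 CPM (SRF-ICA1L) and 1.91, 4.66 and 2.01 CPM (SRF-RELA), all above both controls. Fitted log2 fold changes against pMSCV were 2.26 (SE 0.43), 2.92 (SE 0.43) and 2.67 (SE 0.43), the last of them 2.08 without SRF-RELA replicate 2. The gene's span overlaps TNC on the opposite strand, which reached 4996 CPM, and 129 of its 6650 exon bases (1.94%) are also TNC exon. The use of strand in counting is not given in the sources used here, so reads of the pair could not be told apart if strand was ignored. Mean TNC was 2424 CPM in the vector group, 1824 CPM with SRF alone and 2794 CPM with SRF-PDGFRB, against 3658 CPM with SRF-FOXO1, 3176 CPM with SRF-RELA and 2399 CPM with SRF-ICA1L. It was thus higher in 2 of the 3 groups where DELEC1 was high, and at the vector level in SRF-ICA1L, where mean DELEC1 was highest. Its part in the DELEC1 values was not tested.

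**Figure D1:**
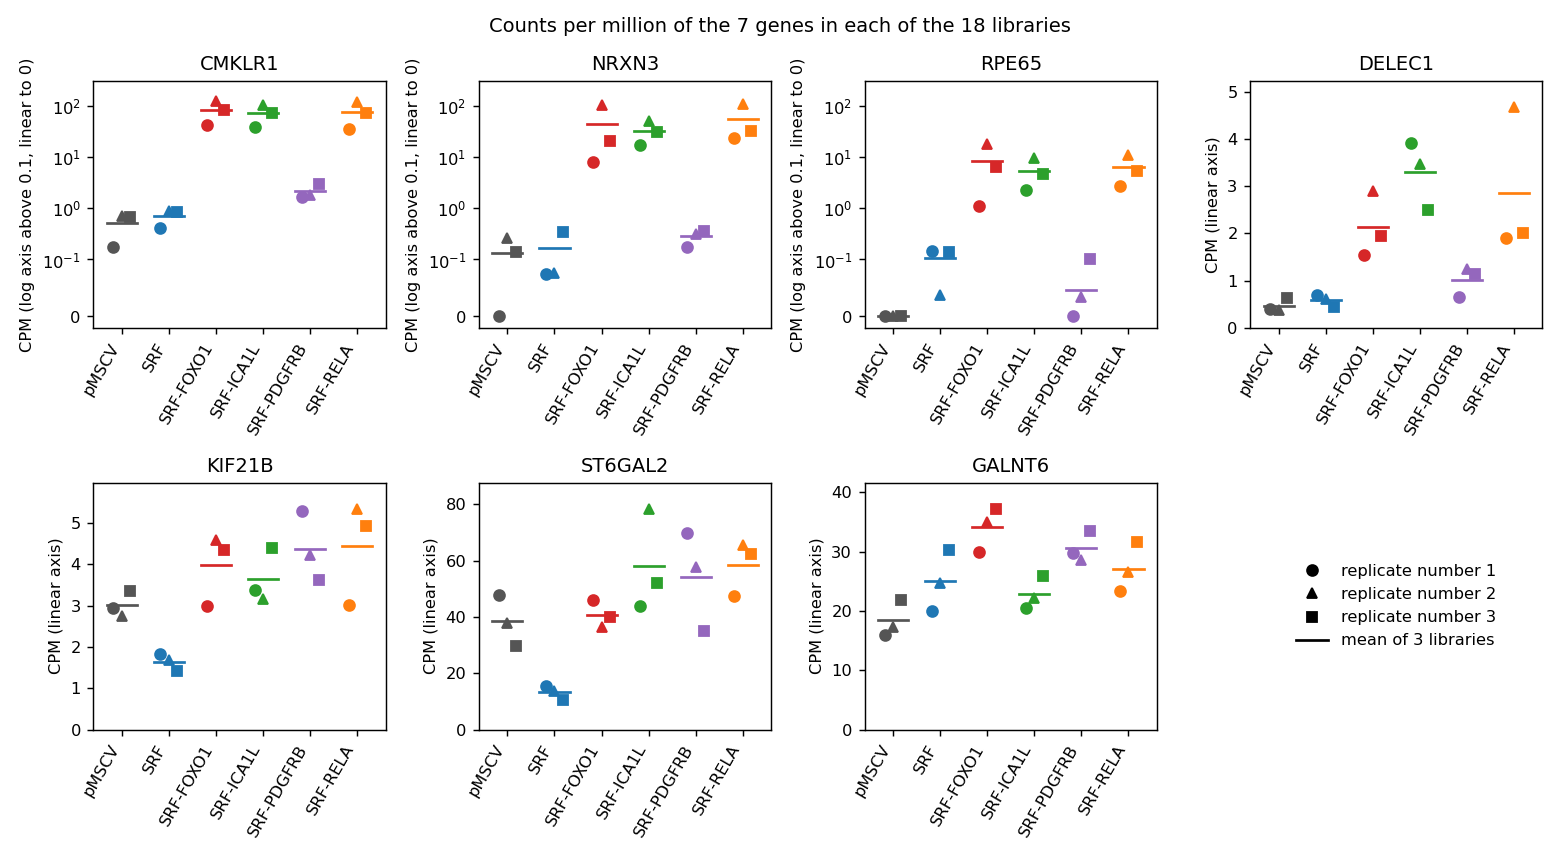
CPM of each gene in all 18 libraries, by group, with a log axis that turns linear below 0.1 CPM for CMKLR1, NRXN3 and RPE65 and a linear axis from 0 for the others. Symbols give the replicate number and bars the mean of 3 libraries; SRF-RELA, SRF-FOXO1 and SRF-ICA1L are high in the upper row, and SRF alone is low for KIF21B and ST6GAL2.

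KIF21B (ENSG00000116852, 1:200969390-201023700, minus strand) showed another pattern, in which SRF alone was the low group. Its pMSCV libraries had 2.94, 2.75 and 3.36 CPM, and its SRF libraries 1.82, 1.68 and 1.42 CPM, below every other library. SRF-FOXO1 had 2.99, 4.58 and 4.35 CPM and SRF-ICA1L 3.37, 3.16 and 4.38 CPM. SRF-PDGFRB had 5.29, 4.22 and 3.62 CPM and SRF-RELA 3.02, 5.33 and 4.93 CPM. All 4 fusions were thus above SRF without overlap, and only SRF-PDGFRB was above pMSCV without overlap. Between libraries of the same number, each of the 4 was above pMSCV in 3 of 3. The fitted log2 fold changes ran from 1.22 (SE 0.26, SRF-ICA1L) to 1.46 (SE 0.26, SRF-RELA) against SRF, but from 0.37 (SE 0.25) to 0.61 (SE 0.25) against pMSCV.

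ST6GAL2 (ENSG00000144057, 2:106801600-106887108, minus strand) was the most abundant of the 7 per kilobase of exon in pMSCV, and it too was low with SRF alone. It had 47.8, 37.7 and 29.7 CPM in pMSCV and 15.6, 13.8 and 10.4 CPM in SRF. SRF-FOXO1 was at 45.9, 36.3 and 40.1 CPM, close to pMSCV. SRF-ICA1L had 44.0, 78.2 and 52.0 CPM, SRF-PDGFRB 69.7, 57.6 and 35.0 CPM and SRF-RELA 47.5, 65.5 and 62.2 CPM. Every fusion overlapped pMSCV, and every fusion library was above every SRF library. Against SRF the log2 fold changes ran from 1.66 (SE 0.28, SRF-FOXO1) to 2.22 (SE 0.29, SRF-ICA1L), and against pMSCV from 0.15 (SE 0.27) to 0.71 (SE 0.27). SRF itself was below pMSCV by a log2 fold change of -1.51 (SE 0.28) for ST6GAL2 and -0.85 (SE 0.26) for KIF21B, and each gene was lower in all 3 same-numbered library pairs. Those SRF libraries also entered the choice of the genes, so these 2 values are given without p as well.

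GALNT6 (ENSG00000139629, 12:51351247-51392867, minus strand) varied least. It had 15.9, 17.4 and 21.9 CPM in pMSCV and 19.95, 24.7 and 30.2 CPM in SRF. SRF-FOXO1 had 29.99, 35.0 and 37.1 CPM, SRF-ICA1L 20.4, 22.1 and 25.8 CPM, SRF-PDGFRB 29.8, 28.5 and 33.4 CPM and SRF-RELA 23.3, 26.5 and 31.6 CPM. All fusions but SRF-ICA1L lay above pMSCV without overlap, and all 4 overlapped SRF. Between libraries of the same number, SRF-FOXO1, SRF-PDGFRB and SRF-RELA were each above SRF in 3 of 3 and SRF-ICA1L in 1 of 3. The log2 fold change against pMSCV was largest in SRF-FOXO1, at 0.97 (SE 0.16), and against SRF it ran from -0.05 (SE 0.16, SRF-ICA1L) to 0.50 (SE 0.16, SRF-FOXO1). GALNT6 shares 392 of its 7347 exon bases (5.34%) with SLC4A8 on the opposite strand, whose group means were 10.2 to 12.8 CPM.

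**Figure D2:**
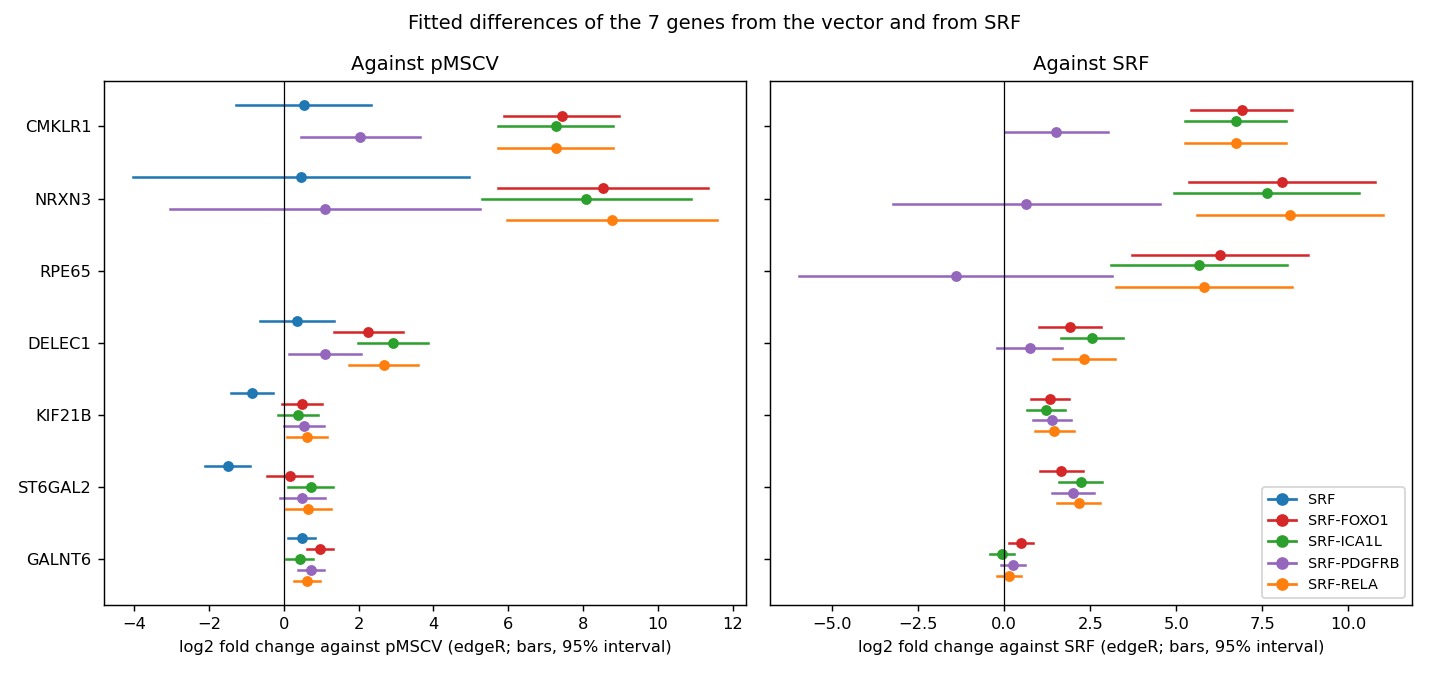
Fitted log2 fold change of each gene against pMSCV (left) and against SRF (right), with 95% intervals, from edgeR, shown as a description; RPE65 against pMSCV is left out because that group has no count. SRF alone lies below 0 for KIF21B and ST6GAL2, and SRF-PDGFRB lies between 0 and the other fusions for CMKLR1 and DELEC1.

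Ordered by mean CPM, the fusions ranked SRF-FOXO1, SRF-RELA and SRF-ICA1L for CMKLR1 and RPE65, SRF-RELA, SRF-FOXO1 and SRF-ICA1L for NRXN3, and SRF-ICA1L, SRF-RELA and SRF-FOXO1 for DELEC1. Neighbours in these orders overlapped in their libraries, and the 21 log2 differences of the 7 genes between pairs of the 3 fusions were at most 0.69 in size. The genes were picked as alike in several fusions, so a lack of differences here was selected for and the calls are a description. None of the 21 was called (adjusted p under 0.05 in edgeR's quasi-likelihood test over 18544 genes), 2 were under an unadjusted 0.05, and the share of all genes called in these pairs was 0.027% (SRF-FOXO1 against SRF-ICA1L), 0.00539% (SRF-FOXO1 against SRF-RELA) and 0.0108% (SRF-ICA1L against SRF-RELA). Blocking on replicate number called 1 of them, GALNT6, which was higher in SRF-FOXO1 than in SRF-ICA1L by a log2 value of 0.55 (SE 0.10); the share of genes called higher in that fit was 0.469%. For CMKLR1 the 95% intervals of the pairwise log2 differences ran from -0.88 to 1.22, -0.88 to 1.22 and -1.05 to 1.05, and for NRXN3 from -1.26 to 2.16, -1.94 to 1.47 and -2.40 to 1.02.

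SRF-PDGFRB stood apart from the other fusions in the first 4 genes and close to them in the rest. The log2 differences for CMKLR1 were 5.39 (SE 0.61) in SRF-FOXO1, 5.22 (SE 0.61) in SRF-ICA1L and 5.22 (SE 0.61) in SRF-RELA. For NRXN3 they were 7.44 (SE 1.18), 6.99 (SE 1.17) and 7.68 (SE 1.18), and for DELEC1 1.17 (SE 0.40), 1.83 (SE 0.40) and 1.58 (SE 0.40), the last of them 0.99 without SRF-RELA replicate 2. Without replicate 2 of the fusion the NRXN3 values were 5.70 in SRF-FOXO1 and 6.65 in SRF-RELA. RPE65 had only 3 counts in SRF-PDGFRB, and its ratios were 205 (counting interval 69.8 to 997), 144 (48.9 to 700.3) and 169.9 (57.8 to 827). Leaving out 1 library at a time, they ran from 83.6 (without SRF-FOXO1 replicate 2) to 461, from 87.9 (without SRF-ICA1L replicate 2) to 323 and from 103 (without SRF-RELA replicate 2) to 382, each highest without SRF-PDGFRB replicate 3, when 1 count was left there. For KIF21B, ST6GAL2 and GALNT6 the 9 differences from SRF-PDGFRB lay between -0.34 and 0.24. The genes were chosen on libraries that enter these comparisons, so the counts called are given without reading them: 3 against SRF-PDGFRB in SRF-FOXO1 (0.566% of all genes were called higher), 4 in SRF-ICA1L (0.566%) and 2 in SRF-RELA (0.113%). With the replicate block the SRF-RELA count was 4, of CMKLR1, NRXN3, RPE65 and DELEC1 (0.62% of all genes). Without any 1 of the SRF-PDGFRB libraries, each of the 3 counts was 1. Calls over all genes fell too. Without SRF-PDGFRB replicate 1 they went from 133 to 14 in SRF-FOXO1 and from 30 to 13 in SRF-RELA. Without SRF-PDGFRB replicate 3 they went from 152 to 43 in SRF-ICA1L.

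Against the controls, where the choice was made, the calls follow from that choice and are no evidence about the genes. The number of the 7 called higher against pMSCV was 5 with SRF-FOXO1 (0.874% of all genes called higher), 4 with SRF-RELA (0.183%), 4 with SRF-ICA1L (0.458%) and 0 with SRF-PDGFRB (0.0324%). Against SRF it was 6 with SRF-FOXO1 (1.15%), 5 with SRF-RELA (0.34%), 6 with SRF-ICA1L (0.636%) and 2 with SRF-PDGFRB (0.0863%). None was called lower in any of the 8. CMKLR1, NRXN3, RPE65 and DELEC1 were called in SRF-RELA, SRF-FOXO1 and SRF-ICA1L against pMSCV, with GALNT6 in SRF-FOXO1. KIF21B and ST6GAL2 were called in the 4 fusions against SRF, and RPE65 was called against SRF in SRF-FOXO1 and SRF-ICA1L only. The replicate block called 2 in SRF-PDGFRB against pMSCV, CMKLR1 and GALNT6 (0.129% of all genes). It also called GALNT6 in SRF-ICA1L (3.26%) and SRF-RELA (0.928%) against pMSCV, CMKLR1 in SRF-PDGFRB against SRF (1.21%) and RPE65 in SRF-RELA against SRF (1.26%). In SRF-FOXO1 against SRF, where the numbers did not pair every library, it called all 7, GALNT6 among them. The share of all genes called either way there was 7.23%. In SRF against pMSCV 0 of the 7 were called, 3 were under an unadjusted 0.05, and DESeq2's Wald test and the replicate block each called 1; with the block it was ST6GAL2, as lower (0.0809% of all genes). The counts leaned on single libraries, as did those of all genes. Without pMSCV replicate 1 the counts against pMSCV were 1 for SRF-FOXO1, 1 for SRF-RELA and 2 for SRF-ICA1L. Those against SRF were 1 for SRF-FOXO1, 2 for SRF-RELA, 3 for SRF-ICA1L and 0 for SRF-PDGFRB when SRF replicate 2 was left out. Over all genes, the calls in SRF-FOXO1 against pMSCV fell from 172 to 3 without pMSCV replicate 1. Against SRF, calls over all genes fell without SRF replicate 2 from 253 to 20 in SRF-FOXO1 and from 145 to 48 in SRF-ICA1L.

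The choice of genes did not use the replicate number, and values by number are given. Earlier results of these data had shown that libraries with the same number deviate together. The contrast below was set with this known, so its p-values are no independent support. In SRF-RELA, SRF-FOXO1 and SRF-ICA1L alike, library 2 had the highest and library 1 the lowest level of CMKLR1, NRXN3 and RPE65. Over all 18 libraries, in a fit with group and number, number 2 was above numbers 1 and 3 by a log2 value of 0.97 (SE 0.14, edgeR adjusted p 0.000476) for CMKLR1, 2.01 (SE 0.29, edgeR adjusted p 0.000991) for NRXN3 and 1.85 (SE 0.31, edgeR adjusted p 0.00293) for RPE65. DELEC1 was at 0.57 (SE 0.20, edgeR adjusted p 0.0828), and KIF21B, ST6GAL2 and GALNT6 were between 0.01 and 0.22 and not called. These 3 calls of 7 stand beside 7.32% of all genes called higher and 12.7% called either way. They are not separate results, as the 3 genes were correlated within groups (r of 0.73 to 0.87 with group means removed). Outside the 3 fusions the order held only in part. Over the 6 groups, number 2 was highest in 5 for CMKLR1, 4 for NRXN3 and 3 for RPE65, and in SRF-PDGFRB number 3 was highest for all 3 genes. Number 1 was lowest in 6 groups for CMKLR1, 6 for NRXN3 and 5 for RPE65, where a tie at 0 in pMSCV is counted. NRXN3 and RPE65 had at most 10 counts a library outside those fusions. Their values and p-values thus rest on the 3 groups where they were high, and only through these did they pass the count filter. The labels do not say what a number marks.

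**Figure D3:**
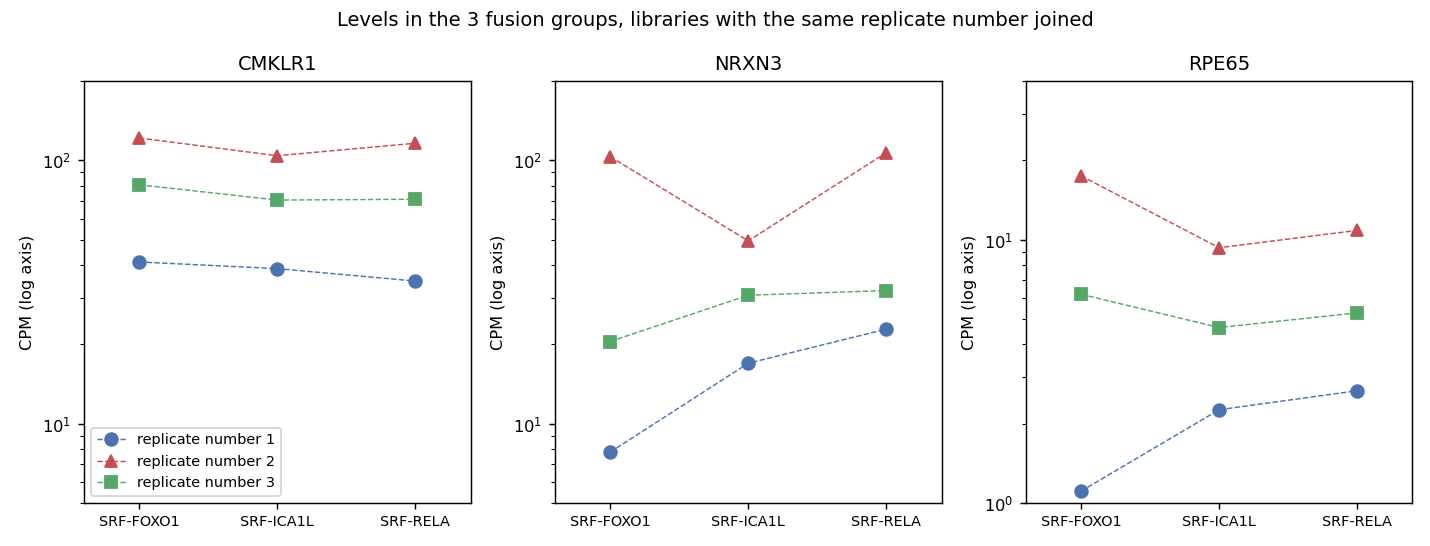
CPM (log axis) of CMKLR1, NRXN3 and RPE65 in SRF-RELA, SRF-FOXO1 and SRF-ICA1L, 1 point per library, with dashed lines joining libraries of the same replicate number. In each panel the number 2 libraries are highest and the number 1 libraries lowest in all 3 groups, from 34.8 to 122 CPM for CMKLR1.

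Levels of the 4 leading genes were correlated over libraries, in part through the group means on which they were chosen. Pearson's r of log2 CPM over 18 libraries, which share group and number, was 0.98 between CMKLR1 and NRXN3, 0.96 between CMKLR1 and RPE65, 0.98 between NRXN3 and RPE65 and 0.91 to 0.93 between DELEC1 and these 3. With group means removed, r was 0.87, 0.73 and 0.85 among CMKLR1, NRXN3 and RPE65, and 0.49, 0.57 and 0.60 between DELEC1 and these 3. GALNT6 and CMKLR1 had 0.56, or 0.71 with group means removed. KIF21B and ST6GAL2 had r of 0.85, or 0.35 with group means removed, and ST6GAL2 and GALNT6 had 0.09. Among genes whose mean log2 CPM reached 1, those most like CMKLR1 were ACTG2, a smooth muscle actin (r = 0.96), and the collagen gene COL11A1 (0.96). Nearest to NRXN3 and RPE65 were the keratin gene KRT17 (0.97 and 0.98) and COL11A1 (0.97 and 0.98). The vector group had 2.31 ± 0.764 CPM of COL11A1 (SD, n = 3) and SRF-PDGFRB 3.09 ± 1.13 CPM, against 86.3 ± 52.7 CPM with SRF-FOXO1, 46.8 ± 14.1 CPM with SRF-RELA and 36.1 ± 11.4 CPM with SRF-ICA1L. DELEC1 was most like THBS1, thrombospondin (0.94), and the unnamed ENSG00000260604 (0.92). KIF21B was most like the kinase gene TAOK3 (0.90) and the importin gene KPNA1 (0.89), and ST6GAL2 like RPGRIP1L (0.87) and USP48 (0.85). TAOK3 had 45.9 ± 1.97 CPM in SRF and 53.6 to 59.9 CPM on average elsewhere, and SRF was the lowest group for it as for KIF21B. GALNT6 was most like MAGEB2 (0.82) and MATN3 (0.81).

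Genes of the same families and pathways were read from 6 lists of 124 genes without the 7, of which 83 were tested. In SRF against pMSCV and in the fusions against either control, 2 calls were made, both in SRF-FOXO1 against SRF, where 1.15% of all genes were called higher and 0.216% lower. GALNT10, which starts O-glycans as GALNT6 does, was higher by 1.09 on the log2 scale (SE 0.25, edgeR adjusted p 0.0461), at 245, 573 and 446 CPM against 189, 229 and 206 CPM. ST8SIA4, which builds polysialic acid, fell by 1.07 (SE 0.22, edgeR adjusted p 0.025), at 16.5, 8.30 and 9.11 CPM against 21.7, 30.7 and 20.9 CPM. Neither call was left without SRF replicate 1 or without SRF replicate 2, when 0 of the 83 were called. The median log2 fold change of the 83 lay between 0.01 and 0.15 in the 9 comparisons, beside medians of -0.02 to 0.01 over all tested genes.

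With the replicate block more of the 83 passed. The counts against pMSCV were 11 with SRF-FOXO1, 1 with SRF-RELA, 12 with SRF-ICA1L and 1 with SRF-PDGFRB, beside 7.03%, 0.971%, 4.66% and 0.178% of all genes called either way. Against SRF they were 1 with SRF-RELA, 13 with SRF-ICA1L and 4 with SRF-PDGFRB, beside 1.73%, 4.73% and 2.34%. SRF-FOXO1 against SRF, where the numbers did not pair every library, had 14, beside 7.23%. Of the 14 tested retinoid genes, 6 rose with the block in SRF-ICA1L against pMSCV, beside 3.26% of all genes called higher. They were the retinol dehydrogenases RDH5, RDH10 and RDH11, the vitamin A importer STRA6, the retinoic acid carrier CRABP2 and the receptor RARB. Against pMSCV the block called 1 of the 14 in SRF-FOXO1 and 0 in SRF-RELA and SRF-PDGFRB. Without the block, the median log2 fold change of the 14 against pMSCV was 0.190 in SRF-ICA1L and 0.195 in SRF. CRABP2 went from 109 ± 27.6 CPM in pMSCV to 359 ± 169.8 CPM (SD, n = 3), a log2 value of 1.78 with the block (SE 0.32, edgeR adjusted p 0.00566) that was not called without it (1.82, SE 0.48, edgeR adjusted p 0.131). LRAT and RLBP1, which make and carry the retinoids that RPE65 handles in the eye, stayed at or under 0.301 and 0.086 CPM in every library. Among the 15 tested neurexin genes and partners, the block called LRRTM4 and NXPH3 higher and LRRTM2 lower in SRF-FOXO1 against pMSCV. Against SRF it called NLGN1, a neuroligin that binds neurexins, lower in SRF-FOXO1 (-1.65, edgeR adjusted p 0.000765) and in SRF-ICA1L (-1.17, edgeR adjusted p 0.00805). Without the block NLGN1 was called in neither, and the numbers did not pair every library in SRF-FOXO1 against SRF.

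Paralogs and the ligand were named whatever their values. Chemerin itself, RARRES2, was scarce: 0.566, 0.989 and 0.658 CPM in pMSCV, 0.0742, 0.306 and 0.555 CPM in SRF, and 0.9503, 3.96 and 3.26 CPM in SRF-ICA1L. It was above SRF in SRF-ICA1L by 3.19 on the log2 scale (SE 0.81, edgeR adjusted p 0.0866), and the block gave 3.14 (edgeR adjusted p 0.0078). Another chemerin receptor, the paralog CMKLR2, had group means of 3.45 to 6.51 CPM and did not follow CMKLR1. It passed the block only in SRF-ICA1L against SRF (0.89 on the log2 scale, edgeR adjusted p 0.0482, against 0.537 without the block). NRXN2, a paralog of NRXN3, had group means of 4.16 to 7.07 CPM, with log2 fold changes against pMSCV between -0.55 and 0.12 in SRF and the fusions, none called. KIF21A, the paralog of KIF21B, was at 10.7 ± 2.21 CPM in SRF and 14.0 to 18.4 CPM on average elsewhere. Its log2 fold changes against SRF were 0.55 to 0.85 and not called. With the block it was called at 0.80 in SRF-FOXO1 (edgeR adjusted p 0.0106), where the numbers did not pair every library. ST6GAL1 had means of 0.857 CPM in SRF and 1.29 to 1.83 CPM elsewhere, and GALNT3 means of 9.54 to 14.1 CPM, with no call in either fit.

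**Figure D4:**
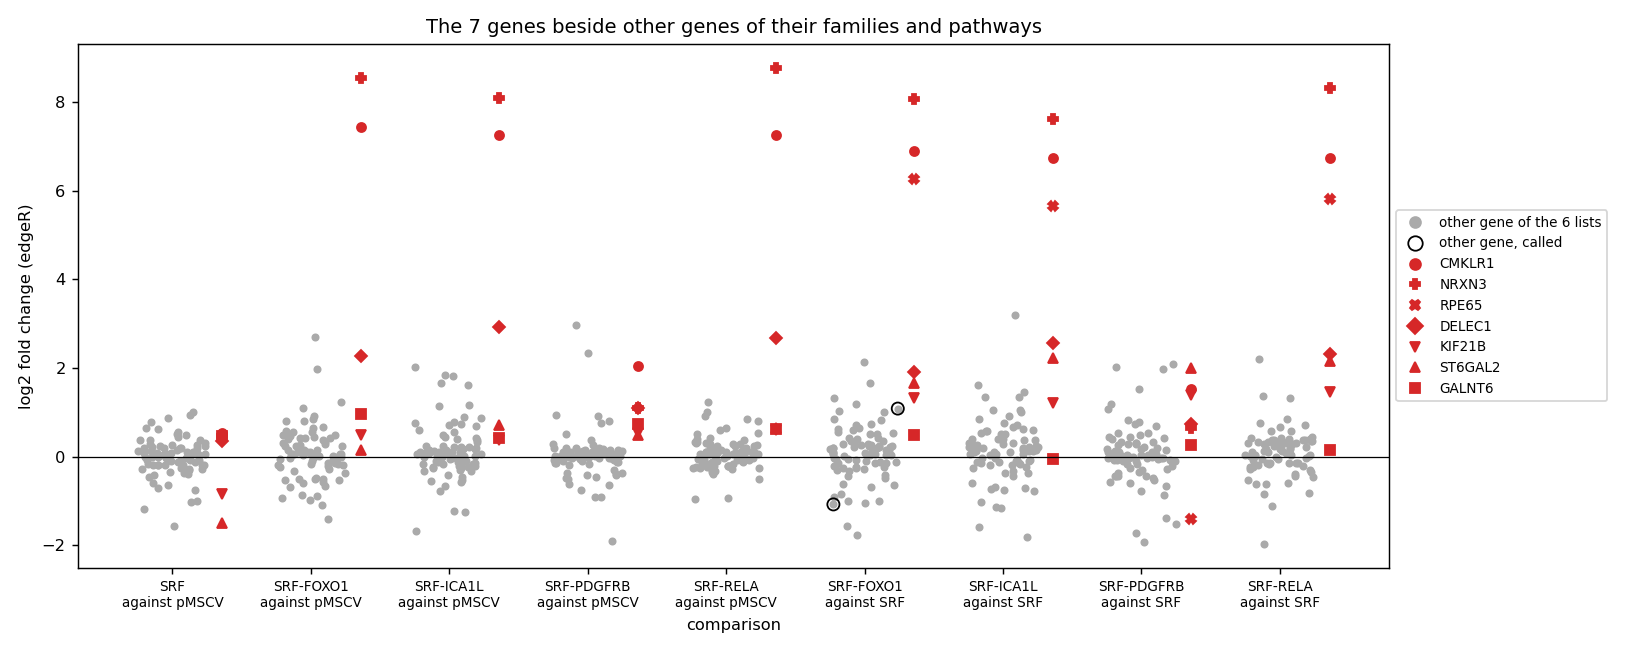
Log2 fold changes (edgeR) of the 83 tested genes of the 6 family and pathway lists (grey) and of the 7 genes (red) in 9 comparisons, with circles around listed genes that were called. CMKLR1, NRXN3 and RPE65 lie above the grey points in SRF-RELA, SRF-FOXO1 and SRF-ICA1L; RPE65 against pMSCV is left out because that group has no count.

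The nearest protein-coding genes on each side gave a look at position. The genes beside CMKLR1 were WSCD2, with at most 0.0783 CPM, and FICD, 176 kb away. FICD had means of 6.27 ± 0.630 CPM in pMSCV and 11.5 ± 5.14 CPM in SRF-FOXO1, a log2 value of 0.98 (SE 0.30, edgeR adjusted p 0.144) that the block gave as 0.89 (edgeR adjusted p 0.00711). NRXN3 lies between ADCK1 and DIO2, neither called in any fusion against a control in either fit. The same held for WLS and DEPDC1 beside RPE65 and TNFSF15 beside DELEC1. PAPPA, on the other side of DELEC1, was lower with the block in SRF-FOXO1 (-1.80, edgeR adjusted p 0.039) and SRF-ICA1L (-1.92, edgeR adjusted p 0.0383) against pMSCV, and not called without it (edgeR adjusted p 0.23 and 0.322). INAVA, 53.7 kb from KIF21B, was also lowest with SRF alone, at 4.37 ± 1.62 CPM against 9.06 ± 3.60 CPM in pMSCV and 8.88 to 22.5 CPM on average in the fusions. Its log2 fold changes against SRF, 1.124 to 2.33, were not called (edgeR adjusted p 0.121 to 0.401), and with the block all 4 were (1.15 to 2.29, edgeR adjusted p 0.00192 to 0.0447). For SRF-FOXO1 against SRF, the numbers did not pair every library. CACNA1S, CD8B2 and CELA1 were at or near 0, and RGPD4 and SCN8A were not called in either fit.

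Markers of the cells in which these genes are best known were read in the same libraries. In bulk RNA, fewer cells of a type and less RNA per cell cannot be told apart. The 7 mesenchymal markers were detected in every group, with summed levels of 6660 to 8338 CPM in pMSCV and 9784 to 21934 CPM in SRF-ICA1L. These sums were mostly COL1A1, at 4821 to 20593 CPM over all libraries, while LUM, the next largest, reached 948 CPM. The 6 markers such cells should lack summed to 1.03 to 4.17 CPM. For CMKLR1, 8 macrophage and dendritic cell markers summed to 4.53 to 5.44 CPM in pMSCV and 3.60 to 7.25 CPM in SRF-RELA, SRF-FOXO1 and SRF-ICA1L. Among them CSF1R was the largest part, at 3.09 to 6.55 CPM over all libraries. CD1C was at 0 in every library and CD68 and CD163 at or under 0.278 and 0.139 CPM. For NRXN3, 8 neuron markers summed to 12.4 to 17.4 CPM in pMSCV and 10.4 to 20.6 CPM in the 3 fusions, with ELAVL4 at 0 in every library and SYT1 the largest part. For RPE65, 8 retinal pigment epithelium markers summed to 50.8 to 124 CPM in pMSCV and 30.7 to 100.3 CPM in the 3 fusions, mostly SERPINF1. The summed epithelial markers were higher in some of the 3 fusions, with overlaps, and the summed smooth muscle markers in all 3. The epithelial sums were mostly KRT8 (24.3 to 52.3 CPM over all libraries) and KRT18 (24.3 to 191 CPM). The 7 epithelial markers summed to 56.2 to 96.4 CPM in pMSCV, 55.3 to 148 CPM in SRF, 98.8 to 228 CPM with SRF-FOXO1, 79.1 to 157 CPM with SRF-RELA, 102 to 234 CPM with SRF-ICA1L and 56.7 to 111 CPM in SRF-PDGFRB, so that SRF overlapped each of the 3 and SRF-RELA overlapped pMSCV, with EPCAM and KRT19 at or under 0.537 and 0.268 CPM. The 10 smooth muscle markers summed to 143 to 378 CPM in pMSCV, 208 to 534 CPM in SRF and 294 to 485 CPM in SRF-PDGFRB, against 938 to 2430.3 CPM with SRF-FOXO1, 551 to 1425 CPM with SRF-RELA and 658 to 1271 CPM with SRF-ICA1L, without overlap. Of these 10, TAGLN, ACTG2 and ACTA2 reached 1182, 590 and 348 CPM over all libraries, while DES, MYOCD and MYH11 reached 1.10, 14.0 and 22.5 CPM. The part of the markers in the levels of the 7 genes was not tested.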

How the data were processed

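The authors deposited raw counts per Ensembl gene for 18 libraries, per the file headers. Per the labels' protocols these were stranded mRNA libraries from a NovaSeq instrument. The submitters' processing notes name FastQC 0.11.8, Trimmomatic 0.39, HISAT2, featureCounts, Subread 2.0.3 and GRCh38; which annotation release and strand setting were used is not given in the sources used here. Symbols were matched for 61369 of 61487 identifiers from the gene table and 105 from GENCODE 29. CPM is the usual scaling of counts by the library total, with no TMM factor. edgeR 4.0.16 (R 4.3.3) fitted all 18 libraries with 1 coefficient per group after filterByExpr (minimum count 10, 18544 genes) and TMM scaling, with robust quasi-likelihood F tests, two-sided, adjusted by Benjamini-Hochberg over all tested genes, and a call at an adjusted p under 0.05. The scripts were tested on simulated data.

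The genes and the lists were chosen with earlier results of these data known. Comparisons between fusions and of SRF with pMSCV were planned with p-values for the 7 genes. The p-values are left out because the libraries that chose the genes enter them. Calls there are given as counts and gene names, as a description. Besides the 7 genes, the text names called genes of the 6 lists (at most 3 a list), their paralogs and the ligand RARRES2, the 2 genes most correlated with each, and the nearest protein-coding gene on each side (GENCODE 29). One paralog is not reported here. Genes named because they passed the replicate block, and single markers, were chosen after their values were seen. Promoter windows come from RefSeq (GRCh38.p14).

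Deviations from group means correlated over 0.1 in 44 of 45 same-numbered library pairs (median 0.38, against -0.18 for different numbers). The exception was SRF 1 with SRF-FOXO1 1 (0.087). The numbers were read as pairing, from the values and not the labels, except in SRF-FOXO1 against SRF. The fit with the number as a block is given where it changed a call. Alternatives were DESeq2 size factors, no count filter, the Wald test of DESeq2 1.42.0, the block, and leaving out each library.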

Additional observations from a re-analysis of the deposited data

How the results depend on the processing

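Every setting here was planned. Scaling by DESeq2 size factors kept every count of the 7 genes and of the 83 related genes within 1.5 times. The DESeq2 Wald test called 1 of the 7 genes in SRF and 1 in SRF-PDGFRB against pMSCV and 4 in SRF-RELA against SRF-PDGFRB. Its calls over all genes in these comparisons were 36, 20 and 121. The Wald test called 3 related genes in SRF-FOXO1 and 4 in SRF-ICA1L against pMSCV, beside 536 and 327 of all genes. Against SRF it called 4 and 3 related genes, beside 719 and 446 of all genes. Without a count filter, 1 of the 7 was called in SRF-RELA against SRF-PDGFRB and 1 related gene in SRF-RELA against SRF. Those comparisons had 43 and 71 of all genes called. With the replicate block, 1 of the 7 was called in SRF against pMSCV, 2 in SRF-PDGFRB against pMSCV, 4 in SRF-RELA against SRF-PDGFRB and 1 in SRF-FOXO1 against SRF-ICA1L. Over all genes the block called 45, 33, 157 and 169 in these comparisons, in that order. Related genes called with the block numbered 1, 1, 12 and 11 against pMSCV and 1, 4, 13 and 14 against SRF in SRF-RELA, SRF-PDGFRB, SRF-ICA1L and SRF-FOXO1. The block has fewer residual degrees of freedom (10 against 12) and a lower common coefficient of variation (0.1498 against 0.225). Other calls of the 7 genes that it changed stand beside their results.

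Leaving out 1 library at a time gave ranges for the 7 genes of 1 to 5 (SRF-FOXO1), 2 to 4 (SRF-ICA1L) and 1 to 4 (SRF-RELA) against pMSCV, and 1 to 6, 3 to 5, 0 to 1 (SRF-PDGFRB) and 2 to 5 against SRF. Against SRF-PDGFRB the ranges were 1 to 3, 1 to 3 and 1 to 2. Number 2 against the others gave 3 to 4 of the 7 genes. All genes called ranged from 3 to 435 (SRF-FOXO1), 29 to 148 (SRF-ICA1L) and 10 to 47 (SRF-RELA) against pMSCV. Against SRF they ranged from 20 to 859, 48 to 111, 3 to 17 (SRF-PDGFRB) and 13 to 56. Against SRF-PDGFRB the ranges over all genes were 14 to 292, 43 to 160 and 13 to 28. Related genes ranged from 0 to 3 in SRF-FOXO1 against pMSCV, 0 to 5 in SRF-FOXO1 against SRF and 0 to 2 in SRF-ICA1L against SRF. Signs turned for 3 values, none of them called: GALNT6 in SRF-ICA1L against SRF (-0.05) was 0.11 without SRF replicate 3, ST6GAL2 in SRF-FOXO1 against pMSCV (0.15) was -0.02 without pMSCV replicate 3, and NRXN3 in SRF against pMSCV (0.46, log2 scale) was -0.66 without SRF replicate 3 and -0.14 without pMSCV replicate 1, in a range up to 1.25, at 0 to 10 counts a library. The causes were not tested. Depth limits NRXN3 and RPE65 in pMSCV, SRF and SRF-PDGFRB, where 0 to 10 counts were found.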
